A study of Mus musculus with 7 samples.

Results

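The genes described here are 10 genes of T cells and cytotoxic lymphocytes: Cd3e, Cd3d, Cd3g, Cd4, Cd8a, Cd2, Lck, Il7r, Nkg7 and Gzma. They were chosen by name, as symbols in the count tables, out of 56854 gene identifiers found in every table, and all 10 were found. They were measured by RNA sequencing, with 1 library for each of 7 mice, from whole shoulder joints taken 2 weeks after the supraspinatus tendon of the left shoulder had been repaired surgically. The mice were wild type (n = 3) or Tnc-/- (n = 4), that is, without tenascin C, a glycoprotein of the extracellular matrix that is made in healing tendon. Every mouse of both genotypes had the repair, so there was no unoperated control. The age, sex and strain of the mice and the way the Tnc allele was made are not given in the sources used here.

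T cells recognise antigen through the T cell receptor, whose variable chains signal through the invariant CD3 chains (Cd3e, Cd3d and Cd3g) and the zeta chain (Cd247). The coreceptors CD4, on helper T cells, and CD8, on cytotoxic T cells, bring the kinase Lck to the receptor. Cytotoxic T cells and natural killer cells kill by releasing granules that hold granzymes, and T cells and innate lymphocytes respond to the survival cytokine IL-7 through Il7r. In a healing tendon T cells are among the cells that enter the wound and release cytokines. In bulk tissue, fewer cells of a type and less RNA per cell cannot be told apart.

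The libraries held between 13464057 and 28191101 counts assigned to genes. The wild-type levels of Tnc itself were 437, 292 and 327 CPM, in the order of the libraries, and the Tnc-/- levels were 33.4, 38.9, 39.9 and 55.0 CPM, where CPM is a counts-per-million value after scaling between libraries (TMM). The difference was a log2 fold change of -3.08 (SE 0.21, adjusted p = 2.8e-04, edgeR), with no overlap, as the labels state. Acta1 of skeletal muscle and Col1a1 of tendon and bone were abundant in all libraries. Wild-type libraries 2 and 3 stood apart from the rest. Smell, pheromone and trace-amine receptor genes, which a joint is not known to use, summed to 1399 and 982 CPM there, against 89.1 CPM in wild-type library 1 and 36.5 to 43.9 CPM in the Tnc-/- libraries. The tables of the genotypes also list different identifiers (126 in the wild-type tables alone, 87 in the Tnc-/- tables alone), so this difference between the tables and the genotype cannot be told apart.

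Of the 10 genes, 2 were called different between genotypes, Cd3e and Lck, both lower in Tnc-/- (edgeR's quasi-likelihood test, Benjamini-Hochberg adjusted p under 0.05 over all 17791 genes tested). Over all genes tested 29.0% were called, 18.7% lower and 10.3% higher, so the share among the 10 was not above the background. All 10 passed the filter on low counts. Their median log2 fold change was 0.097, against -9.0e-04 over all genes tested. The summed level of the 10 genes was 64.8, 82.7 and 74.7 CPM in the wild-type libraries and 58.0 to 87.0 CPM in the Tnc-/- libraries, which overlap. The wild-type libraries also differed among themselves: Cd3e, Cd3g, Lck and Cd8a were higher in libraries 2 and 3 than in library 1, whereas Cd3d, Cd2, Il7r, Nkg7 and Gzma were lower.

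The genes of the CD3 chains lie side by side on mouse chromosome 9. In the RefSeq table (build GRCm38.p6) the start sites of Cd3d and Cd3g are 1355 bases apart on opposite strands, and that of Cd3e is 27.8 kb from that of Cd3d. The 250 bases before each start are shown because these neighbours, whose products are parts of 1 receptor, had different patterns over the libraries. The 2 windows of Lck, the other gene called different, are given with them. Each reads 5′ to 3′ on the strand of the gene. Capitals mark 5 motifs, found on either strand, that do not overlap each other. They are CACCTG, the E-box that E proteins bind. The Runx motif is searched as TGTGGT, and that of Ets factors as AGGAAG. The Gata motif is searched as AGATAA, and the TATA box of basal promoters as TATAAA.
Cd3g, chr9:44980432-44980681, minus strand: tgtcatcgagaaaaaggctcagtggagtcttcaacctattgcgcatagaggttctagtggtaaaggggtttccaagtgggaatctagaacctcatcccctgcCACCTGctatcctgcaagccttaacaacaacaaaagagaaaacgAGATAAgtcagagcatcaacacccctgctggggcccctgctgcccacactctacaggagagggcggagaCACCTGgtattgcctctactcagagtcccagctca
Cd3d, chr9:44981536-44981785, plus strand: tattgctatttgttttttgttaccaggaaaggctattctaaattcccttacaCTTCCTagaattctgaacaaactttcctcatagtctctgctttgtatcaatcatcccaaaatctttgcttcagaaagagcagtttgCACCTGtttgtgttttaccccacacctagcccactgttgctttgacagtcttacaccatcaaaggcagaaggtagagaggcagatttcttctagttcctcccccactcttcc
Cd3e, chr9:45009612-45009861, minus strand: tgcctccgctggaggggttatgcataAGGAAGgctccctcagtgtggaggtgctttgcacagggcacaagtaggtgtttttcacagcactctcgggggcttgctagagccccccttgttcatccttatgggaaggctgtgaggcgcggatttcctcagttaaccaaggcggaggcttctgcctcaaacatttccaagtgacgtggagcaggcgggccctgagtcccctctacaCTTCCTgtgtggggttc
Lck, first start, chr4:129573642-129573891, minus strand: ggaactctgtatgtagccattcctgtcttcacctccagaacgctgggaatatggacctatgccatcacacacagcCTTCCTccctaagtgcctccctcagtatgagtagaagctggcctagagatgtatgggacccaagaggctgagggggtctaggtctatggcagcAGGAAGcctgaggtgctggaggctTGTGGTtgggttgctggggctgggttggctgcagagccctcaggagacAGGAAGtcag
Lck, second start, chr4:129558373-129558622, minus strand: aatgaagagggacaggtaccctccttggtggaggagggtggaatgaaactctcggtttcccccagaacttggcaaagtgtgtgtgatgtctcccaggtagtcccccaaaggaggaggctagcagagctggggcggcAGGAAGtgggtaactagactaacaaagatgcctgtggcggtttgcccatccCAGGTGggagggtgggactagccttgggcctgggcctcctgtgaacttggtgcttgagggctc

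CACCTG occurred at 148 and 35 bases before the start of Cd3g, at 112 bases before that of Cd3d and at 63 bases before the second start of Lck, on the opposite strand in the last. The window of Gzma, which is not printed, holds it at 79 and 135 bases. It was not in the window of Cd3e or in that of the first start of Lck. It occurs in 17.2% of all 32851 promoter windows. AGGAAG was found in the windows of Cd3d, Cd3e, Nkg7 and Il7r and in both of Lck, and 29.5% of all windows hold it. AGATAA was found only in the window of Cd3g among the member windows (9.99% of all windows). TGTGGT was found in the first window of Lck and in those of Nkg7 and Gzma (14.0% of all windows). TATAAA was in none of the 9 windows of the 8 members matched (12.4% of all windows). A match is a run of letters, not a known site, and the windows were not tested against the levels.

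Among the CD3 chains, Cd3e, the epsilon chain, which pairs with both other CD3 chains, had 11, 141 and 87 counts in wild-type libraries 1 to 3 and 32, 13, 19 and 10 in Tnc-/- libraries 1 to 4. On the CPM scale these were 0.590, 9.37 and 5.28 in the wild type and 1.18, 0.724, 1.06 and 0.523 in Tnc-/-. Wild-type libraries 2 and 3 stood above the rest, and wild-type library 1 lay inside the Tnc-/- range, so the genotypes overlap. The log2 fold change was -2.52 (SE 0.81, adjusted p = 0.0461, edgeR). Cd3e shares 135 bases with Gm48719 on the opposite strand, which had 0 counts in every library.

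Cd3g, the gamma chain, was also high in wild-type libraries 2 and 3. Its counts were 21, 127 and 145 in the wild type and 43, 27, 23 and 56 in Tnc-/-, or 1.13, 8.44 and 8.81 CPM against 1.59, 1.504, 1.29 and 2.93 CPM. Wild-type library 1 was the lowest of the 7, so the genotypes overlap. Tnc-/- library 4 was the highest of its genotype for Cd3g and the lowest for Cd3e. Its difference between genotypes, -1.74 on the log2 scale (SE 0.69), did not pass the test (adjusted p = 0.0893, edgeR).

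Cd3d, the delta chain, went the other way. It had 48, 17 and 19 counts in the wild type and 40, 29, 46 and 30 in Tnc-/-, which were 2.58, 1.13 and 1.15 CPM against 1.48, 1.62, 2.58 and 1.57 CPM. Wild-type libraries 2 and 3 were the lowest of the 7 and library 1 was level with the highest Tnc-/- library. Tnc-/- over wild type, the log2 fold change was 0.15 (SE 0.55, adjusted p = 0.857, edgeR). The chains, which are assembled into 1 complex, were therefore not in a fixed ratio: Cd3d to Cd3e (linear ratio) was 4.22 in the first wild-type library and 0.124 and 0.223 in the others, against 1.25 to 2.90 in Tnc-/-. Such a ratio within a library does not depend on the scaling between libraries. Taken as 1 sum, the CD3 chains stood at 4.29, 18.9 and 15.2 CPM in the wild type and 3.84 to 5.02 CPM in Tnc-/-.

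Lck, the Src-family kinase that phosphorylates the CD3 chains, was the member with the smallest adjusted p. It had 131, 312 and 315 counts in the wild type and 148, 89, 98 and 126 in Tnc-/-. The levels were 7.03, 20.7 and 19.1 CPM against 5.47, 4.96, 5.49 and 6.59 CPM. Every Tnc-/- library lay below every wild-type library, though wild-type library 1 was close to the highest Tnc-/- library. Its log2 fold change was -1.47 (SE 0.38, adjusted p = 0.0224, edgeR). The annotated gene contains Mir8119 on the same strand (25 shared bases), which had 0 counts throughout.

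Of the coreceptors, Cd4, which macrophages and dendritic cells can also carry, was the steadiest member. It stood at 14.7, 17.7 and 15.9 CPM in the wild type and at 20.1, 12.9, 18.03 and 15.2 CPM in Tnc-/- (231 to 544 counts). The genotypes overlap throughout, with a log2 fold change of 0.04 (SE 0.21, adjusted p = 0.905, edgeR). Its sign turned under 4 other scalings or filters and without Tnc-/- library 1 or 3.

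Cd8a, the alpha chain of CD8, was low everywhere, at 14, 24 and 37 counts in the wild type and 49, 20, 16 and 28 in Tnc-/-. This gave 0.751, 1.59 and 2.25 CPM against 1.81, 1.11, 0.896 and 1.46 CPM, again with overlap. Its log2 fold change was -0.21 (SE 0.59, adjusted p = 0.818, edgeR). The linear ratio of Cd4 to Cd8a was 18.9, 10.9 and 7.00 in the wild type and 10.2 to 19.5 in Tnc-/-, so the genotypes overlap here too.

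Cd2, an adhesion receptor of T and natural killer cells that binds CD48 in mice, was the only member with every Tnc-/- library above every wild-type library. It stood at 4.08, 2.99 and 1.64 CPM in the wild type (76, 45 and 27 counts) and at 7.77, 4.85, 6.77 and 4.92 CPM in Tnc-/- (210, 87, 121 and 94 counts). Its log2 fold change of 1.06 (SE 0.46) did not pass the test (adjusted p = 0.11, edgeR). With Lck, 2 of the 10 members had no overlap between genotypes, against 35.1% of all genes tested.

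Il7r, the alpha chain of the IL-7 receptor, stood at 17.2, 13.3 and 7.59 CPM in the wild type and at 20.3, 15.6, 14.3 and 9.78 CPM in Tnc-/- (125 to 549 counts). The genotypes overlap, and the lowest value was that of wild-type library 3. For the genotypes the log2 fold change was 0.24 (SE 0.34, adjusted p = 0.624, edgeR).

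Among the genes of cytotoxic cells, Nkg7, a protein of the membrane of cytotoxic granules, had the highest counts. It stood at 15.3, 7.38 and 12.1 CPM in the wild type (286, 111 and 200 counts) and at 25.1, 14.5, 18.3 and 14.02 CPM in Tnc-/- (680, 260, 326 and 268 counts). Wild-type library 1 lay within the Tnc-/- range and libraries 2 and 3 below it. The log2 fold change was 0.63 (SE 0.32, adjusted p = 0.164, edgeR).

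Gzma, the protease granzyme A, had 27, 0 and 13 counts in the wild type and 58, 23, 17 and 19 in Tnc-/-, or 1.45, 0 and 0.790 CPM against 2.15, 1.28, 0.952 and 0.994 CPM. The 0 of wild-type library 2 allows up to 0.199 CPM (3 counts), for counting error only, and this limit is below every other library. The log2 fold change was 0.83 (SE 0.998, adjusted p = 0.561, edgeR), and the genotypes overlap. It was 0.27 without wild-type library 2, 0.49 without Tnc-/- library 1 and 1.82 without wild-type library 1.

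**Figure D1:**
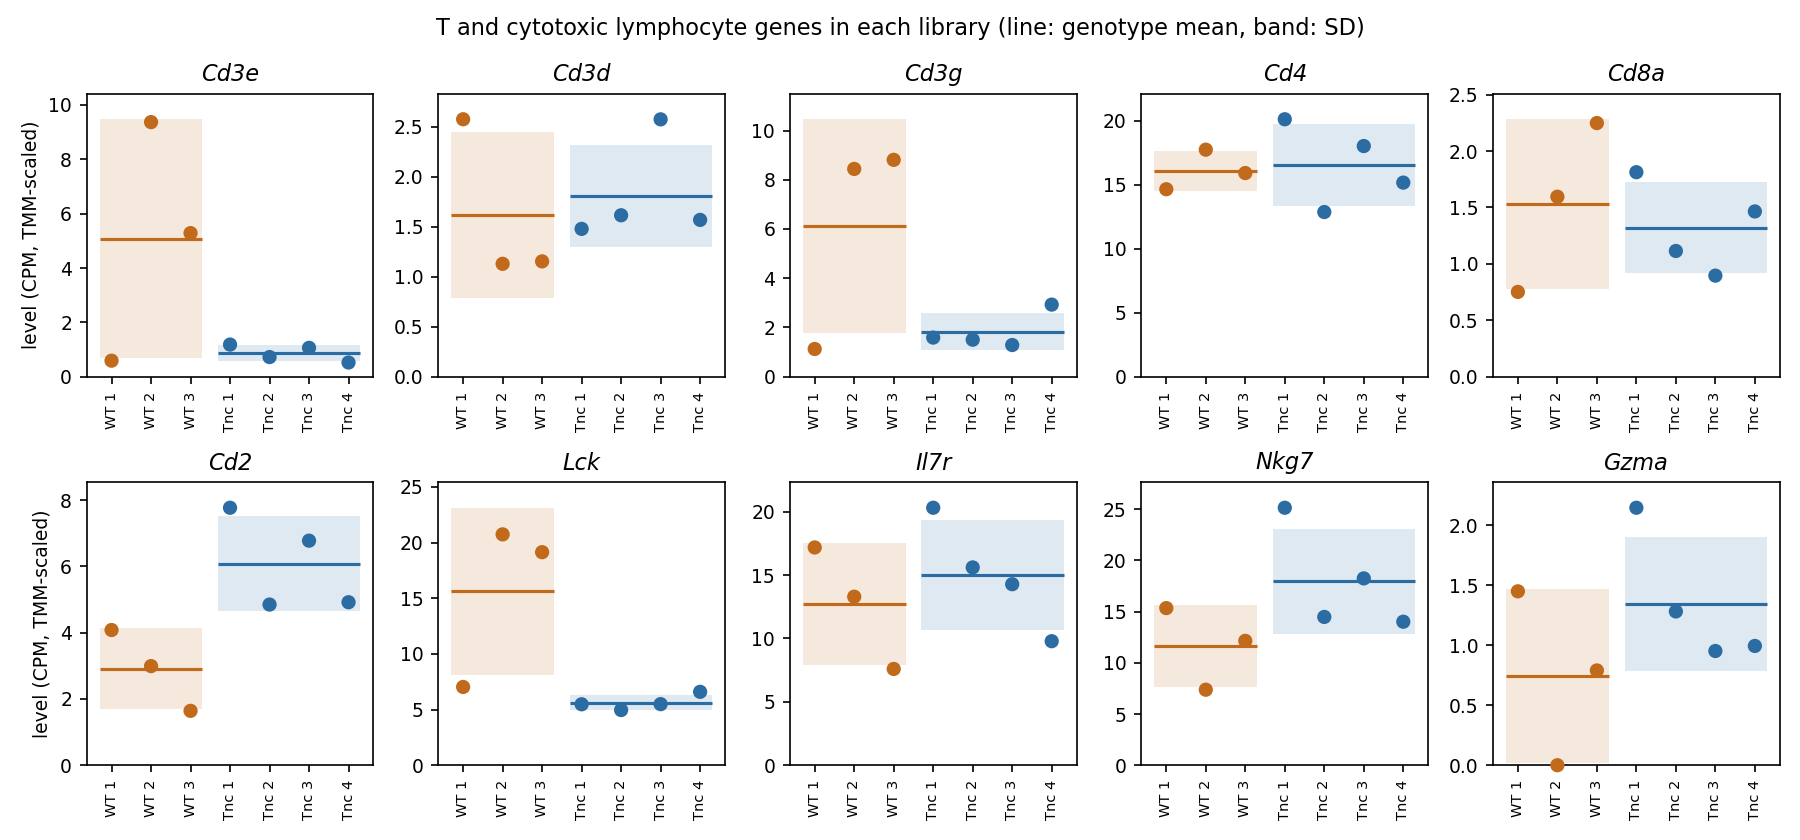
Level of each of the 10 genes in every library (y axis: CPM after TMM scaling, from 0; x axis: library; orange, wild type; blue, Tnc-/-; line, genotype mean; band, SD). Cd3e, Cd3g and Lck are high in wild-type libraries 2 and 3 alone, whereas Cd3d, Il7r and Nkg7 have their highest wild-type value in library 1.

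Per kilobase of annotated exon, which allows genes to be compared, Nkg7 had the highest level in both genotypes, at 12.7 ± 4.39 CPM per kb in the wild type and 19.7 ± 5.63 in Tnc-/- (SD, n = 3 and n = 4). In Tnc-/- it was followed by Cd4 (4.10 ± 0.79), Cd2 (3.49 ± 0.83), Il7r (3.21 ± 0.93), Lck (1.92 ± 0.24), Gzma (1.34 ± 0.55), Cd3d (0.997 ± 0.28), Cd3g (0.559 ± 0.23), Cd8a (0.363 ± 0.11) and Cd3e (0.214 ± 0.075), all in CPM per kb. In that order only the step from Nkg7 to Cd4 had no overlap of the libraries on either side. In the wild type the order after Nkg7 was Lck (5.34 ± 2.56), Cd4 (3.99 ± 0.39), Il7r (2.72 ± 1.03), Cd3g (1.87 ± 1.32), Cd2 (1.67 ± 0.70), Cd3e (1.25 ± 1.08), Cd3d (0.893 ± 0.46), Gzma (0.742 ± 0.72) and Cd8a (0.421 ± 0.21). There too Nkg7 alone was clear of the next gene. The wild-type means pool libraries that differ widely. In wild-type library 1 Cd3e, at 0.145 CPM per kb, was the lowest member, with Cd8a next at 0.207. By the mean Cd3e was the lowest in Tnc-/- as well, though in Tnc-/- library 3 Cd8a (0.246) lay below Cd3e (0.261).

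The split of the wild type was set beside the difference between genotypes on the log2 scale. It was larger for Cd3e (3.63 against -2.52), about equal for Lck (1.504 against -1.47) and smaller for Cd2 (-0.82 against 1.06). The mean of wild-type libraries 2 and 3 was 12.4 times library 1 for Cd3e, 7.65 times for Cd3g, 2.84 times for Lck and 2.56 times for Cd8a. It was 0.443 times library 1 for Cd3d, 0.568 for Cd2, 0.608 for Il7r, 0.636 for Nkg7 and 0.272 for Gzma. Cd4 differed least, at 1.15 times. Relative to Cd3e, Nkg7, Il7r and Cd2 were thus far lower in wild-type libraries 2 and 3 than in the rest: Nkg7 to Cd3e was 24.9 in the first wild-type library, then 0.788 and 2.29, against 16.7 to 25.6 in Tnc-/-. Il7r to Cd3e was 27.9, then 1.42 and 1.43, against 13.1 to 20.8 in Tnc-/-. Cd2 to Cd3e was 6.65, then 0.322 and 0.314, against 6.23 to 9 in Tnc-/-. In these 3 ratios wild-type library 1 was inside or above the Tnc-/- range and libraries 2 and 3 were below it.

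**Figure D2:**
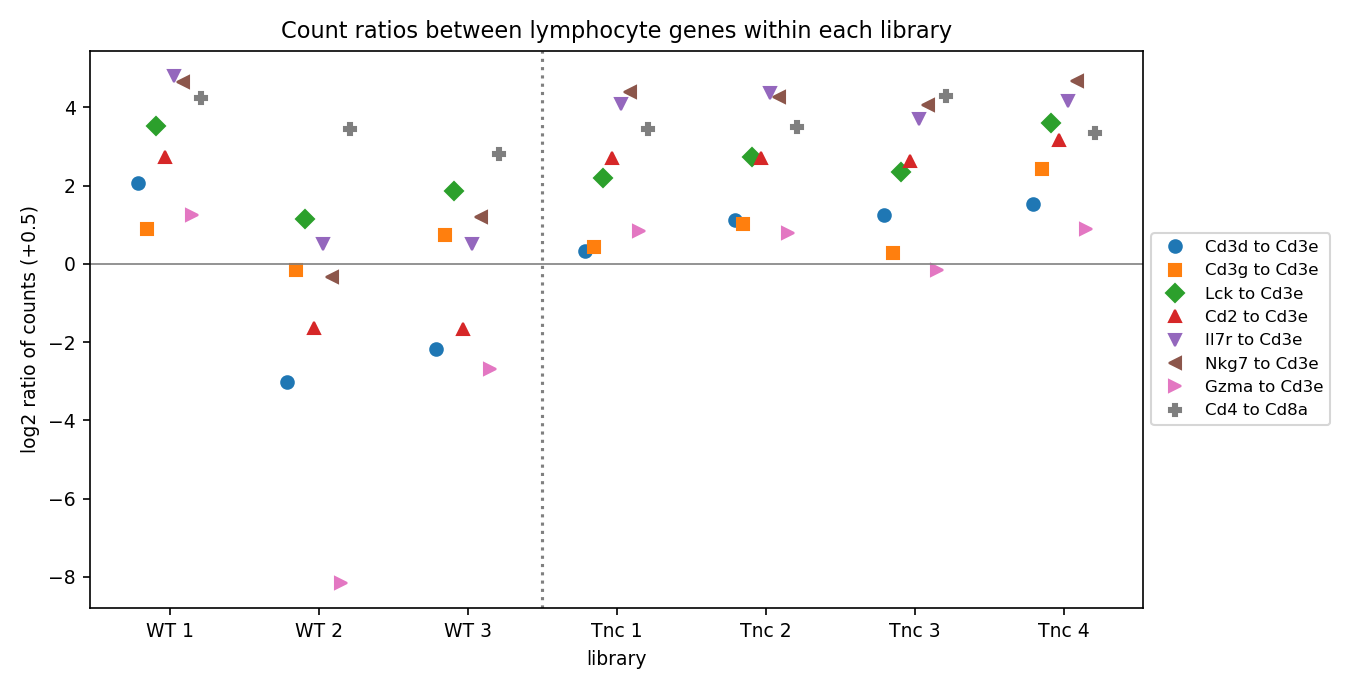
Ratios of counts between lymphocyte genes within each library (y axis: log2 of the ratio of counts plus 0.5; x axis: library; dotted line: border between genotypes). Ratios of Cd3d, Cd2, Il7r, Nkg7 and Gzma to Cd3e drop in wild-type libraries 2 and 3, and the lowest point, Gzma to Cd3e in wild-type library 2, rests on 0 counts of Gzma.

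The same wild-type libraries carried the receptor-gene reads, at 3.45 and 2.65 counts per kb of exon, against 0.270 in wild-type library 1 and 0.115 to 0.193 in Tnc-/-. At that rate the exons of Cd3e would hold 14.1 of its 141 counts in wild-type library 2 and 10.8 of its 87 in library 3, and those of Cd3g 11.3 of 127 and 8.66 of 145. For Lck it would be 10.1 of 312 counts in library 2. The rate weighs more on low genes: 12.6 of the 24 counts of Cd8a, 6.26 of the 17 counts of Cd3d and 3.47 counts for Gzma, which had 0 there. With this rate subtracted from every gene, an alternative added after the data were seen, Lck was still called (log2 fold change -1.501, adjusted p = 0.0235, edgeR). Cd3e was at -2.47 (SE 0.84) with an adjusted p of 0.0576, so its size hardly moved while the call was lost. The part of these reads in the differences between genotypes was not tested beyond this subtraction and the fits that follow.

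Without wild-type library 1, 5 members were called: Cd3e (log2 fold change -2.95, adjusted p = 1.5e-04), Cd3g (-2.14, adjusted p = 5.5e-04) and Lck (-1.73, adjusted p = 3.9e-05) lower in Tnc-/-, and Cd2 (1.49, adjusted p = 0.00789) and Nkg7 (0.97, adjusted p = 0.0116) higher. In that edgeR fit 64.2% of all genes tested were called. With wild-type library 1 alone against Tnc-/-, where the lone library is assumed to vary like the others, 0 of 10 members were called, the lowest adjusted p was 0.362, and 4.45% of all genes were called. The log2 fold changes of Cd3e and Cd3g were then 0.56 and 0.69, with the sign turned, and that of Lck was -0.33. With the receptor-gene level of each library as a covariate, again 0 members were called (lowest adjusted p = 0.306, edgeR, background 2.28%). Cd3e was at 1.72 (SE 0.85), Cd3g at 1.45 (SE 0.83) and Lck at 0.10 (SE 0.39). That level was higher in every wild-type library than in every Tnc-/- library. This fit therefore separates it poorly from genotype and is no independent check of the signs. Leaving out any other single library also left 0 members called, with adjusted p from 0.0892 to 0.187 for Cd3e and from 0.0540 to 0.0950 for Lck. Without single Tnc-/- libraries the log2 fold changes stayed at -2.72 to -2.35 for Cd3e and -1.56 to -1.42 for Lck. Without wild-type library 2 they were -1.73 and -1.21, and without wild-type library 3 they were -2.49 and -1.29. The background was then 16.0 and 12.3% without wild-type libraries 2 and 3 in turn, and 16.6, 17.6, 14.5 and 16.5% without Tnc-/- libraries 1 to 4 in turn. DESeq2 on all 7 libraries called Cd3e and Lck as edgeR did, beside 39.3% of the genes it tested.

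**Figure D3:**
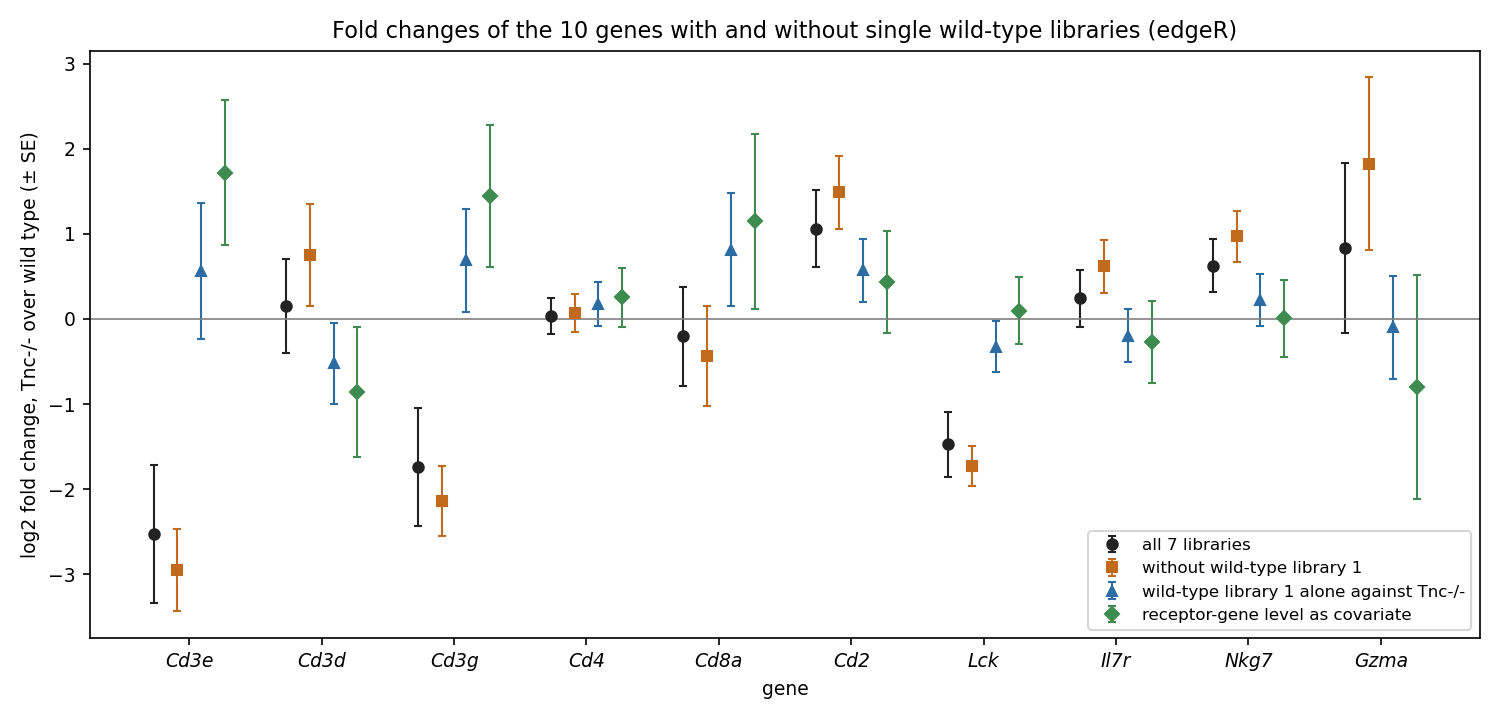
Log2 fold change of each member, Tnc-/- over wild type, with its SE (y axis), under 4 edgeR fits (x axis: gene; black, all 7 libraries; orange, without wild-type library 1; blue, wild-type library 1 alone against Tnc-/-; green, receptor-gene level as covariate). Cd3e and Cd3g lie below 0 in the first pair of fits and above 0 in the other pair, and Cd4 stays near 0 in all 4.

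The wider T cell receptor complex and its proximal signalling were read from a list of 27 genes, of which 23 were tested. In it 3 genes were called higher in Tnc-/- and 3 lower, a share near the 29.0% of all genes tested, and the median log2 fold change was -0.02. Among the lower genes were the receptor beta constant gene Trbc1 (log2 fold change -1.83, SE 0.48, adjusted p = 0.0230, edgeR) and the zeta chain gene Cd247 (-1.42, SE 0.40, adjusted p = 0.0285). Cd247 stood at 8.05, 18.1 and 7.59 CPM in the wild type and 3.51 to 4.85 CPM in Tnc-/-, without overlap and highest in wild-type library 2. Trbc1 is uncertain because it shares most of its sequence with Trbc2, which was at 1.66, 2.59 and 0 CPM in the wild type and 2.77 to 3.86 CPM in Tnc-/-. The higher genes were Csk, which restrains Src-family kinases such as Lck (0.75, SE 0.15, adjusted p = 0.00977), the phosphatase gene Ptpn6 (1.001, SE 0.25) and the exchange factor gene Vav1 (0.54, SE 0.17). These 3 are used by many kinds of leukocyte. The call of Vav1 passed in 5 of 20 alternatives, and with library totals it was at 0.30. With wild-type library 1 alone Trbc1 was at -1.26, Cd247 at -0.94, Ptpn6 at 0.50, Csk at 0.60 and Vav1 at 0.71. Without wild-type library 2 Cd247 was at -0.89 (adjusted p = 0.11, edgeR). The calls of Trbc1 and Cd247 each passed in 9 of 20 alternatives and were lost without any single Tnc-/- library. The most abundant genes of the list that were not called were Nfatc2 (0.43) and Prkcq (-0.02). Not called either were the receptor alpha constant gene Trac (0.66, SE 0.47, adjusted p = 0.317, edgeR) and Cd5 (1.01, SE 0.57, adjusted p = 0.211, edgeR). Of the 23 genes tested, 11 had a log2 fold change above 0 and 12 below, so the receptor genes did not go 1 way.

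Of 28 genes of T cell costimulation, trafficking and lineage, 23 were tested, 3 were called higher and 7 lower, with a median of -0.48, where 10.3% of all genes tested were called higher and 18.7% lower. The 4 lower genes with the smallest adjusted p were the chemokine receptor gene Ccr4 (-6.36, SE 0.98, adjusted p = 0.00670, edgeR), Tox (-3.51, SE 0.76) and Ikzf2 (-3.70, SE 0.85), which encode nuclear factors of T cells, and the costimulatory receptor gene Cd28 (-1.86, SE 0.44). Ccr4 was at 1.34, 34.2 and 24.7 CPM in the wild type against 0.168 to 0.333 CPM in Tnc-/-. Its counts in Tnc-/- were only 9, 4, 3 and 4, so it passed the filter on low counts through the wild type alone. The size of its fold change is therefore uncertain. Cd28 was at 3.76, 8.51 and 7.65 CPM against 1.52 to 2.04 CPM. Both Ccr4 and Cd28 were highest in wild-type libraries 2 and 3 but had no overlap between genotypes. Tox, at 2.74, 43.3 and 27.6 CPM against 1.40 to 3.23 CPM, and Ikzf2, at 1.23, 31.7 and 12.8 CPM against 0.889 to 1.45 CPM, did overlap. With wild-type library 1 alone none of these 4 was called, and the log2 fold changes were -2.47 for Ccr4, -0.36 for Tox, -0.09 for Ikzf2 and -1.05 for Cd28. The higher genes were Klf2, a factor that controls lymphocyte trafficking and is also used by endothelium (0.95, SE 0.13, adjusted p = 0.00670), and the lineage factor genes Zbtb7b (0.98, SE 0.20) and Runx3 (1.03, SE 0.24). Klf2 was the 1 gene among these that stayed called with wild-type library 1 alone (0.91, adjusted p = 0.0206). Cd44 (-0.09) and Ets1 (-0.16) were the most abundant genes that were not called.

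Of 29 genes of cytotoxic and natural killer cells, 24 were tested, with 1 called higher and 1 lower and a median of 0.27, against 29.0% called over all genes tested. The higher gene was Unc13d, needed for granule release (0.91, SE 0.17, adjusted p = 0.00877, edgeR), and the lower was Tbx21, which encodes the T-bet factor (-1.95, SE 0.60, adjusted p = 0.0395). Tbx21 was at 3.27, 8.44 and 6.32 CPM in the wild type and 0.481 to 2.01 CPM in Tnc-/-. Its call passed in 7 of 20 alternatives and was lost without any single library other than wild-type library 1. Tbx21 was at -1.099 (adjusted p = 0.287, edgeR) and Unc13d at 0.76 (adjusted p = 0.0610) with wild-type library 1 alone. Srgn (0.38), the granule proteoglycan gene, and Stx11 (0.75) were the most abundant genes that were not called.

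Of 21 partners of IL-7 receptor, common gamma chain and CD2 signalling, 20 were tested, 5 were called higher and 1 lower, with a median of 0.38. Over both directions this share is near the 29.0% of all genes tested. By direction, 10.3% of all genes tested were called higher and 18.7% lower, so the calls of this list lay more on the higher side. The 5 higher genes include Il2rg. That gene, which encodes the common gamma chain, had 0 counts in all wild-type libraries and 30.8 to 34.5 CPM in Tnc-/-, at least 180.4-fold higher than 3 counts per wild-type library. This value is uncertain, because Il2rg overlaps Gm20489, an identifier that only the wild-type tables list. Its partner kinase gene Jak3 was at 36.6, 24.3 and 18.5 CPM in the wild type and 53.9 to 60.8 CPM in Tnc-/- (1.103, SE 0.22, adjusted p = 0.00979, edgeR). Crlf2, of the TSLP receptor that Il7r also forms (0.68, SE 0.16), and Stat5a, which acts after it (0.53, SE 0.16), were higher as well. The call of Stat5a passed in 5 of 20 alternatives and was lost, among others, with library totals (0.30, adjusted p = 0.156, edgeR) and without any single Tnc-/- library. With wild-type library 1 alone Jak3 was at 0.63 (adjusted p = 0.0511) and Stat5a at 0.29. Cd2ap, whose product binds the tail of CD2 and is also used outside lymphocytes, was lower (-0.82, SE 0.16, adjusted p = 0.00875, edgeR). It was at -0.49 with wild-type library 1 alone. With the receptor-gene level as covariate it was at -0.32 and not called (adjusted p = 0.432, edgeR). Mcl1 (0.37) and Jak1 (0.19) were the most abundant genes that were not called.

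Over these 4 lists 12 genes were called lower in Tnc-/-, and in 12 of the 12 the mean of wild-type libraries 2 and 3 was above library 1. Of the 12 called higher, 1 had that order and 11 did not. Over all 90 genes tested in the lists 47 had it. The calls and this order rest on the same wild-type values, so the count is a description. The calls also went with gene length: of 10 listed genes spanning more than 100 kb 3 were called lower and 0 higher, against 52.4% lower and 3.37% higher among all genes of that span. Of 26 listed genes spanning up to 10 kb 1 was called lower and 3 higher, against 7.06% and 11.96% of all such genes. Of the members called lower, Cd3e spans 10.9 kb and Lck 25.3 kb. Of 28 listed genes in their class, 10 to 30 kb, 2 were called lower and 6 higher. Among all genes of that class 9.72% were called lower and 14.0% higher. The part of gene length in these calls was not tested.

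**Figure D4:**
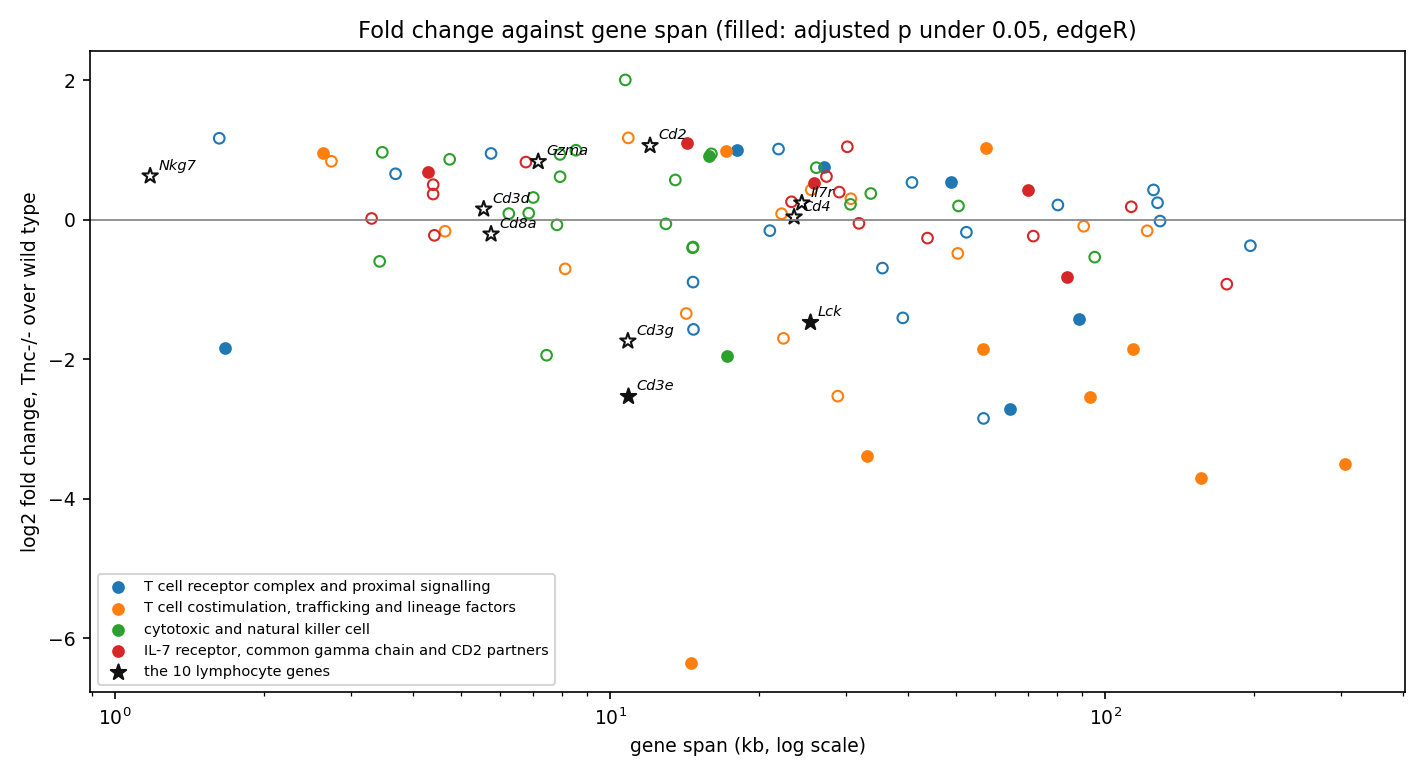
Log2 fold change, Tnc-/- over wild type (y axis), against the span of the gene in kb (x axis, log scale) for the members and the genes of the 4 lists, with Il2rg not drawn. Ccr4, at -6.36, is the lowest point, and the genes spanning over 100 kb hold 3 called lower and 0 called higher.

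Genes whose pattern over the 7 libraries was nearest to the mean of Cd3e, Cd3d and Cd3g were sought among 14793 genes with at least 1 CPM on average, by the root mean square difference of centred log2 CPM. They were Entpd7 (0.076), Cers6 (0.090), Ildr2 (0.10), Adat1 (0.10) and Csnk1g1 (0.11), in log2 units. Entpd7 stood at 11.5, 32.8 and 27.1 CPM in the wild type and 9.47 to 12.6 CPM in Tnc-/-, which is the same high level in wild-type libraries 2 and 3. The CD3 chains themselves lay farther from their own mean, Cd3g at 0.46, Cd3e at 0.59 and Cd3d at 0.91.

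Markers of other cells were read beside all genes tested, of which 10.3% were called higher and 18.7% lower. Of 8 general leukocyte genes 3 were called higher in Tnc-/- and 0 lower, and their summed level was 1167, 606 and 662 CPM in the wild type and 1083 to 1579 CPM in Tnc-/-, so wild-type library 1 lay in the Tnc-/- range. Of 10 genes of neutrophils and marrow myeloid cells 7 were called higher (5741, 2749 and 3013 CPM summed in the wild type, 6336 to 10791 CPM in Tnc-/-), and of 6 erythroid genes tested 5 (8504, 4395 and 5537 CPM against 12438 to 24707 CPM). In both, wild-type library 1 was the nearest to Tnc-/-. With wild-type library 1 alone, the log2 fold change of S100a9, of neutrophils, was 0.67 (adjusted p = 0.221, edgeR) against 1.22 with all libraries. Likewise, that of Coro1a, of leukocytes, was 0.38 (adjusted p = 0.348) against 1.01, and that of the globin gene Hbb-bs was 1.19 (adjusted p = 0.121) against 1.61. Of 7 B cell genes tested 2 were called higher (217 to 262 CPM against 253 to 378 CPM). Of 8 macrophage genes 0 were called (693 to 1129 CPM against 996 to 1196 CPM). Of 3 lymphoid precursor genes tested 0 were called either (24.9 to 34.4 CPM against 27.2 to 62.8 CPM). Of 6 skeletal muscle genes 1 was called higher, Myh4 (log2 fold change 1.18, adjusted p = 0.00856, edgeR). The sums did not overlap (18019 to 24058 CPM against 25396 to 37437 CPM). Neither did 35.1% of all genes tested, taken singly. Of the dendritic cell, mast cell and plasma cell lists 0 genes were called, though with wild-type library 1 alone Jchain of plasma cells was lower in Tnc-/- (-1.06, adjusted p = 0.0269). Of 7 genes of tendon, cartilage and bone tested, Bglap was called higher (0.55) and Mkx lower (-0.92, adjusted p = 0.0379), and the sums overlapped (9401 to 16207 CPM against 11136 to 21725 CPM). The mast cell list summed to 55.3, 96.6 and 79.4 CPM in the wild type and 50.1 to 73.8 CPM in Tnc-/-. The dendritic cell list summed to 67.9 to 84.2 CPM and 68.7 to 81.2 CPM, and the plasma cell list to 123 to 215 CPM and 133 to 215 CPM. The lymph node list summed to 7.30 to 14.02 CPM and 5.57 to 10.4 CPM. Some markers had 0 counts in all 7 libraries, among them Rag1, Rag2, Ccl21a and Ccl19. So did Alas2 of erythroid cells, beside Hbb-bs at 2178 to 13547 CPM, and Scx of tendon, so a 0 throughout may not be a reading of the cell type. Set against the leukocyte gene Ptprc, the sum of the 10 members was 0.594, 1.39 and 1.13 in the wild type and 0.657 to 0.841 in Tnc-/- (linear ratio). The part of these other cells in the levels of the members was not tested.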

How the data were processed

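Poly(A) libraries (NEBNext Ultra, per the labels) of 7 mouse shoulder joints were assigned to genotypes from the labels. The authors deposited raw counts of reads per gene, made, per the submitters' processing notes, with FastQC 0.11.9, HISAT2 2.2.1, HTSeq 2.0.2 and DESeq2 1.38.3, the last being a test rather than a counter, and the builds GRCm39 and mm39. The strand setting and annotation are not given in the sources used here.

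The files of the wild type list 56980 identifiers and those of Tnc-/- list 56941. The 56854 in all files were used. Only the Tnc-/- files have rows that name no gene (30.1 to 32.7% of their reads), and these were left out. Counts were tested with edgeR 4.0.16 (R 4.3.3; filterByExpr defaults, TMM, robust quasi-likelihood fit, genotype alone, Benjamini-Hochberg threshold 0.05), after a check on simulated data. CPM are counts over the kept library size times the TMM factor. SE is the log2 fold change over the root of F. Alternatives used DESeq2 1.42.0, limma 3.58.1, other scalings and filters, and left-out libraries. The precision of low genes is set by their counts. Nothing says whether the libraries' numbers mark anything shared, and p-values measure only the spread between these mice. Exon lengths and spans came from GENCODE M21 (GRCm38) and covered 98.2% of the genes tested. Promoter windows came from RefSeq (GRCm38.p6), and no coordinate was carried between builds.

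The members and lists were chosen with earlier results of these data known. Named from each list were the called genes with the smallest adjusted p, at most 4 per direction, the 2 most abundant genes that were not called, and genes at 0 in 1 genotype. The members, Tnc, Ptprc and the 5 nearest patterns were also named, and, of the 2 most abundant genes of each marker list, those that the text uses. Trac, Cd5, Trbc2, Bglap, Mkx and the marker genes at 0 counts were named after their values were seen. Of the genes this rule names, 1 is not reported here.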

Additional observations from a re-analysis of the deposited data

Results flagged for a closer look

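Dixon's test for 1 library far from the others was run on 36 values of the 4 Tnc-/- libraries, and chance gives about 1 in 20. It picked out 5 values. Cd3d was at 2.58 CPM in Tnc-/- library 3, against 1.48 to 1.62 CPM in the other Tnc-/- libraries. In the same library the log2 ratio of Cd4 to Cd8a was 4.29 and that of Gzma to Cd3e was -0.16, the highest and the lowest of the Tnc-/- libraries. The log2 ratio of Cd2 to Cd3e was 3.17 in Tnc-/- library 4, where Cd3e had its lowest count, 10. The summed level of the mast cell and innate lymphoid type 2 genes was 73.8 CPM in Tnc-/- library 1, against 50.1 to 52.0 CPM in the other Tnc-/- libraries.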

How the results depend on the processing

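The comparison of genotypes was repeated under 20 alternatives, of which the subtraction of the receptor-gene rate was added after the data were seen. Tnc stayed lower and called in all 20. In all, 5159 of 17791 genes tested were called by edgeR. The number tested differed between alternatives, and the genes called were 9423 of 24002 by DESeq2, 1943 by DESeq2 and 22 by edgeR with Bonferroni adjustment, 973 by limma voom, 825 of 18530 with wild-type library 1 alone, 1932 with the replicate block, 406 with the receptor-gene level as covariate, and 2229 to 14113 of 17503 to 21989 with single libraries left out. Of the 10 members, 2 were called by edgeR and by DESeq2, 1 without a filter on low counts, 1 with the receptor-gene rate subtracted, 0 under either Bonferroni adjustment, limma voom, wild-type library 1 alone, the replicate block or the covariate, and 0 to 5 with single libraries left out. The highest of these counts came without wild-type library 1.

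In the list of T cell receptor complex and proximal signalling, 6 genes were called by edgeR, 10 by DESeq2, 0 and 0 with Bonferroni adjustment of DESeq2 and edgeR, 1 by limma voom, 0 with wild-type library 1 alone, 2 with the block, 1 with the covariate and 2 to 14 with libraries left out. In that of T cell costimulation, trafficking and lineage, 10 were called by edgeR, 2 and 0 with Bonferroni adjustment, 2 by limma voom, 1 with wild-type library 1 alone, 3 with the block, 0 with the covariate and 5 to 17 with libraries left out. For cytotoxic and natural killer cells, 2 were called by edgeR, 7 by DESeq2, 0 and 0 with Bonferroni adjustment, 1 by limma voom, 4 with library totals, 1 with wild-type library 1 alone, 0 with the covariate and 1 to 12 with libraries left out. For partners of the IL-7 receptor, common gamma chain and CD2, 6 were called by edgeR, 10 by DESeq2, 1 and 1 with Bonferroni adjustment, 3 by limma voom, 1 with wild-type library 1 alone, 3 with the block, 1 with the covariate and 3 to 14 with libraries left out.

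Log2 fold changes with a turned sign were as follows. With the covariate, they were 1.72 for Cd3e, -0.86 for Cd3d, 1.45 for Cd3g, 1.15 for Cd8a, 0.098 for Lck, -0.28 for Il7r, -0.80 for Gzma, 0.77 for Tox, 1.25 for Ikzf2, -0.26 for Srgn, -0.044 for Mcl1 and -0.34 for Jak1. With wild-type library 1 alone, they were 0.56 for Cd3e, -0.52 for Cd3d, 0.69 for Cd3g, 0.82 for Cd8a, -0.20 for Il7r, -0.097 for Gzma, -0.060 for Srgn and -0.16 for Jak1. With library totals, they were -0.056 for Cd3d, -0.21 for Cd4 and -0.041 for Jak1. Cd4 was at -0.0038 with DESeq2 size factors, -0.023 with upper-quartile scaling and -0.043 with at least 10 counts in every library. Cd8a was at 0.31 with the rate subtracted, and Prkcq at 0.060 without a filter and 0.0050 with the block. Over the left-out libraries Cd3d ranged from -0.064 to 0.75, Cd4 from -0.086 to 0.14, Cd8a from -0.44 to 0.18, Il7r from -0.019 to 0.62, Prkcq from -0.10 to 0.13, Cd44 from -0.27 to 0.12 and Ets1 from -0.24 to 0.0082. The cause was not tested.

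Libraries with the same number deviated from their genotype means with correlations of -0.013, 0.086 and -0.0092, so the numbers were not taken as pairs, and the block values above only show the fit with a shared number. Depth limits Gzma, Cd8a and the CD3 chains most, with 0 to 145 counts per library.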
